A study of Homo sapiens with 8 samples.

Results

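The proteasome is the protease that degrades ubiquitin-tagged proteins, and 39 genes of its subunits, caps and maturation are described here, out of 57189 genes counted. The members were listed by gene name, with earlier results of these data known. They are 14 constitutive core subunits (7 PSMA and 7 PSMB), 3 immunoproteasome subunits (PSMB8, PSMB9 and PSMB10) and 17 regulatory subunits (6 PSMC and 11 PSMD). The other members are 4 activators (PSME1 to PSME4) and the maturation factor POMP. Polyadenylated RNA was sequenced from 2 human lines of T-ALL, the T-cell form of acute lymphoblastic leukaemia. CUTTL1, written CUTLL1 in the study, was analysed as control cells and after PKF118-310, a small molecule that keeps β-catenin from TCF factors, and TIB153 was analysed in the same pair of conditions. All cells were untransfected and kept in RPMI with serum, and each of the 4 groups was 1 library read in 2 lanes, which were summed. The comparison asks which transcripts move when Wnt signaling is blocked in T-ALL cells.

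Degradation by the proteasome takes place inside a barrel, the core particle. Its outer rings of PSMA (alpha) subunits form the gate, and its inner rings of PSMB (beta) subunits hold the cutting sites. A regulatory particle of PSMC ATPases and PSMD subunits docks on the barrel, binds ubiquitin chains, removes them and threads the substrate in. PSME proteins are alternative caps. In lymphoid cells and under interferon, PSMB8, PSMB9 and PSMB10 replace the cutting subunits PSMB5, PSMB6 and PSMB7, which alters the peptides offered to MHC class I.

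Library totals lay between 7609427 and 8140391 counts, and lanes of a library agreed within sampling noise (chi-square per degree of freedom 0.990 to 1.02). All 9 T-lineage markers were above 3 counts in every library, with a summed level of 1708 to 2407 CPM of the library total, whereas B-lineage markers summed to 10.5 to 108 CPM, with CD79A the one B-lineage gene above 3 counts. In bulk RNA, fewer cells of a kind and less RNA per cell cannot be told apart. All 39 members passed the filter on low counts, with a median of 1227 to 1314 reads per member in a library and a lowest value of 56 reads. Levels of the members are given as CPM after TMM scaling of the library sizes. Within a line a member was called where its log2 ratio of PKF118-310 over control was at least 0.32 away from 0 and its 95% exact binomial counting interval left out no change. Such an interval covers counting error only, and no p-value exists within a line. Across the lines, edgeR's quasi-likelihood test was used with line as a block (n = 2 lines), with Benjamini-Hochberg adjustment over the 13280 genes tested.

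Proteasome transcripts differed little between treated and control cells, and most lay slightly lower after PKF118-310. Across lines 0 of the 39 members rose, where 6.11% of all genes tested did, and 2 fell, PSME3 and PSMA3, where 6.78% of all genes did. These shares are near or below the background, so the count of calls does not set the members apart. The size of the shift was nevertheless one-sided: 33 of 39 edgeR changes lay below 0, against 6637 of 13280 for all genes, and the median was −0.16 on the log2 scale against 0.00 for all genes. Under scaling by total counts 30 of 39 lay below 0, with a median of −0.11 against 0.06 for all genes. By role, the medians were −0.29 for alpha, −0.03 for beta, −0.30 for immunoproteasome, −0.13 for ATPase, −0.14 for other regulatory genes and −0.25 for activators. At an unadjusted p under 0.05 there were 9 members (23.1%), all lower, where 28.7% of all genes passed in either direction and 14.8% were lower. For 30 of the 39 the 95% interval of the change stayed within 1.5-fold in either direction, which was so for 32.7% of all genes. The width of an interval depends on read depth, and the median SE was 0.12 for members and 0.19 for all genes tested. Genes of like depth were not compared, so these shares do not show that the members were more stable. The edgeR SE borrows most of its information from other genes (13.0 prior degrees of freedom at the median, and 1 residual).

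In CUTTL1, 34 of 39 ratios lay below 0 (49.8% of all genes tested), and in TIB153 29 did (50.8%). The lines agreed on a ratio below 0 for 27 members, against 35.7% of all genes tested. In CUTTL1 no member was called higher (16.8% of all genes were) and 4 were called lower (15.4% of all genes), namely PSMA6, PSMA7, PSMD1 and PSME3. In TIB153 PSMB4 was the single member called higher (background 19.3%), and 11 were called lower (background 20.9%): PSMA3, PSMA4, PSMA5, PSMB8, PSMB9, PSMB10, PSMC3, PSMC5, PSMD1, PSMD12 and PSME3. PSMD1 and PSME3 were therefore the 2 members called lower in both lines. No member reached 2-fold, the largest folds being 1.54 in CUTTL1 and 1.94 in TIB153. With the first lane of each library alone, 8 members were called lower in CUTTL1, and under scaling by total counts 6 were in TIB153.

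**Figure D1:**
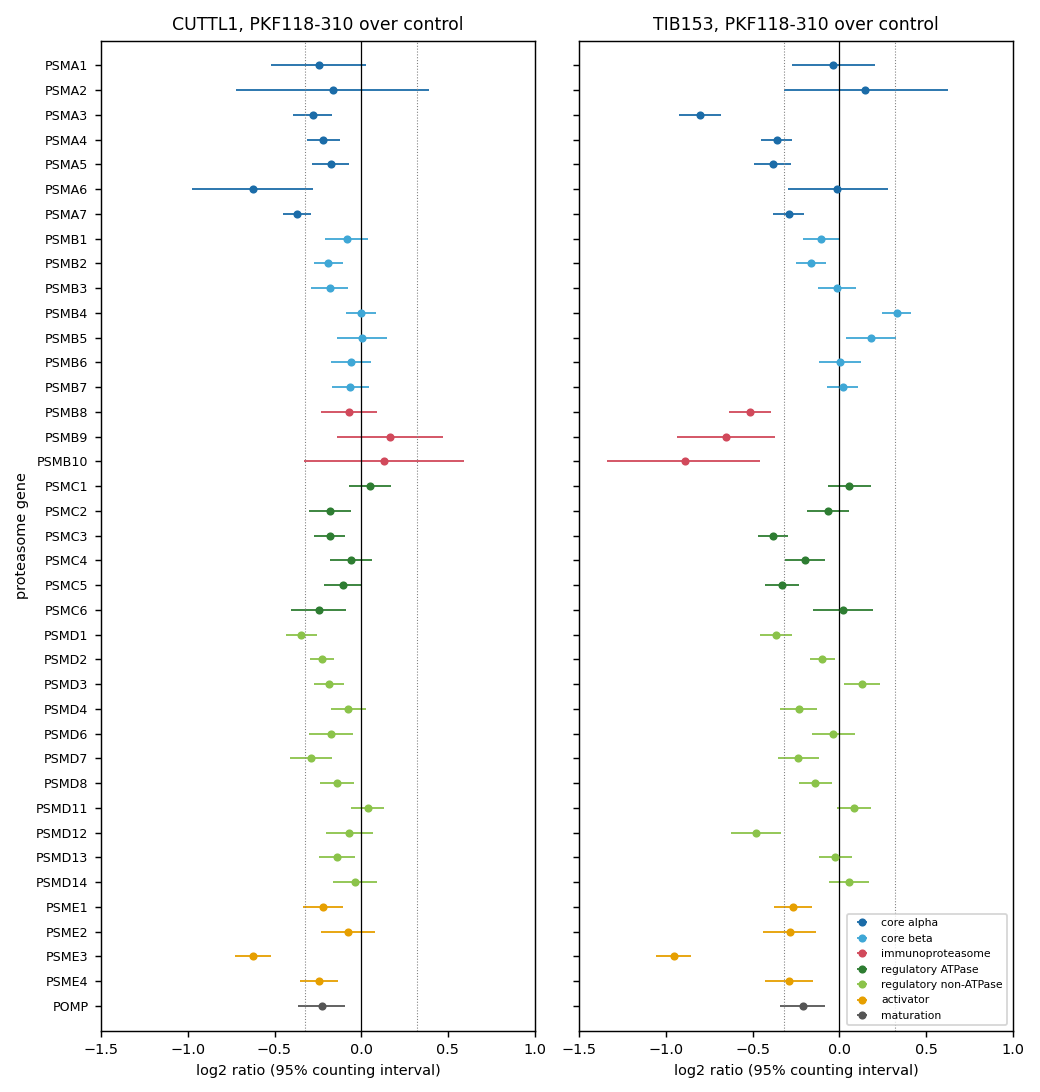
Log2 ratio of PKF118-310 over control for each of the 39 members in CUTTL1 (left) and TIB153 (right), 1 library per group, with bars for the 95% counting interval and dotted lines 0.32 from 0. Most points sit slightly left of 0 in both panels, PSME3 stands furthest left in TIB153 at −0.96, and the intervals of the 3 immunoproteasome genes include 0 in CUTTL1 and lie below 0 in TIB153.

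Promoters are shown for the 2 members that fell and the 3 immunoproteasome genes, since a β-catenin/TCF inhibitor bears on TCF sites. They come from RefSeq (GRCh38.p14), 250 bases before to 50 after a start site, 5′ to 3′ on the gene's strand. Capitals mark matches to 6 motifs searched on both strands, each counted separately: CTTTGA (TCF/LEF core), TGACNNNGC (the core bound by NRF1 and NRF2), CCAAT (NF-Y), GAANNTTC (heat shock), GAAANNGAA (interferon response) and CACGTG (E-box). The windows are chr17:42833147-42833446 on the plus strand, chr14:58244593-58244892 on the plus strand, chr6:32843998-32844297 on the minus strand (the second of 2 listed starts, the first holding no match), chr6:32853942-32854241 on the plus strand and chr16:67936801-67937100 on the minus strand.
PSME3: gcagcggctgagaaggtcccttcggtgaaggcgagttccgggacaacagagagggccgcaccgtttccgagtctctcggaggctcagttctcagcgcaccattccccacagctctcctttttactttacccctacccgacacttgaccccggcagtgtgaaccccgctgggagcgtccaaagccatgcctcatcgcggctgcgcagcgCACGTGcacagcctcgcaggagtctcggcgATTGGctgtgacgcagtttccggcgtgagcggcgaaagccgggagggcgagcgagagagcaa
PSMA3: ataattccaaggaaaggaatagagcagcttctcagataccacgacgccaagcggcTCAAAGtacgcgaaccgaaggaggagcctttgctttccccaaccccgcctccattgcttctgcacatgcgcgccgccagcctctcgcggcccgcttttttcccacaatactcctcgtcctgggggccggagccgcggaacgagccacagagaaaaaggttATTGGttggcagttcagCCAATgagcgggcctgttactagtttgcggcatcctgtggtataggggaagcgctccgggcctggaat
PSMB8: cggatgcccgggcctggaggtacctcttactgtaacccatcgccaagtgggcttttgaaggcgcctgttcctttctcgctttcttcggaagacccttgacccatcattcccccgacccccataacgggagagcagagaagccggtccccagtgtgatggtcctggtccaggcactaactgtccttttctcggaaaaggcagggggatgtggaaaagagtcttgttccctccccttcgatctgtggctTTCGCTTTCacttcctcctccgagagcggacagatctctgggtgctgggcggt
PSMB9: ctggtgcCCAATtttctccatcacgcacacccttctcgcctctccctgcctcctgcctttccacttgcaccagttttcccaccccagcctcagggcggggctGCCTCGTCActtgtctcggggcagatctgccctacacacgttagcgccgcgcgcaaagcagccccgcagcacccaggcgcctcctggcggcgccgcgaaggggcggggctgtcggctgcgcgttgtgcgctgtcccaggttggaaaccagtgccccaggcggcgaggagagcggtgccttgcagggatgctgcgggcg
PSMB10: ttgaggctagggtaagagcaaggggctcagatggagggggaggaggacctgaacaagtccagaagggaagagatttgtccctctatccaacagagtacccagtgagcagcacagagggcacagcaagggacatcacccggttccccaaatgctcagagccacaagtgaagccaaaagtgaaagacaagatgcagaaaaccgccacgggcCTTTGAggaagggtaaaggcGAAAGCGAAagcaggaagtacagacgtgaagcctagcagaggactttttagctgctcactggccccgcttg
The PSME3 and PSMB9 windows belong to starts inside the spans GENCODE gives the genes, and other starts were not searched. PSME3 held an E-box and a CCAAT box on the minus strand and no CTTTGA. PSMA3 held the TCF/LEF core, at −195 to −190 from the start site, and 2 CCAAT boxes. PSMB8 and PSMB10 held the interferon pattern, and PSMB10 also held CTTTGA. The 34 members with an entry had 41 windows. Of these, 7 (17.1%) held CTTTGA against 12.9% of all 35116 windows, and 11 (26.8%) held TGACNNNGC against 13.4%. CCAAT was in 17 (41.5%) against 34.6%, GAAANNGAA in 8 (19.5%) against 8.11%, CACGTG in 2 (4.88%) against 7.26%, and GAANNTTC in 0 against 6.77%. A match is letters in a window and no measure of binding.

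The activators were the group with the clearest single change. PSME3 encodes PA28γ, the nuclear activator that opens the core particle for ubiquitin-independent degradation. The gene lies at chr17:42824385-42843758 on the plus strand (hg38). It had 1881 reads (254 CPM) in CUTTL1 control and 1322 reads (165 CPM) with PKF118-310, and 2166 (282 CPM) and 1218 (145 CPM) in TIB153. Both treated libraries were below both controls. The ratio was −0.62 (−0.73 to −0.52) in CUTTL1 and −0.96 (−1.06 to −0.85) in TIB153, and the edgeR change was −0.79 ± 0.13 (SE, n = 2 lines, adjusted p = 0.00288). In the DESeq2 test and with either lane alone PSME3 also fell. Its call was lost in 1 alternative, the fit without the line term (adjusted p = 0.721).

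PSME1 and PSME2 encode PA28α and PA28β, the interferon-inducible cap of the immunoproteasome. PSME1 had 1293 and 1202 reads in CUTTL1 (175 and 150 CPM) and 1445 and 1311 in TIB153 (188 and 157 CPM). Its edgeR change was −0.24 ± 0.12 (adjusted p = 0.198). PSME2, with 676 and 694 reads in CUTTL1 and 734 and 656 in TIB153, had −0.18 ± 0.13 (adjusted p = 0.397). PSME4, which encodes PA200, a cap associated with acetylated histone turnover, had 1385 and 1267 reads, then 886 and 790 (−0.27 ± 0.12, adjusted p = 0.163). All 4 activators lay below 0 in both lines, and PSME3 was the one that passed.

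The alpha ring held the other call. PSMA3, at chr14:58244831-58272012 on the plus strand, encodes subunit α7. It had 1375 and 1227 reads in CUTTL1 control and treated cells (186 and 153 CPM), and 1438 and 898 in TIB153 (187 and 107 CPM). Control levels were alike in the lines and the treated TIB153 library stood apart. The ratio was −0.28 (−0.39 to −0.17) in CUTTL1 and −0.80 (−0.93 to −0.68) in TIB153. Across lines the change was −0.54 ± 0.14 (edgeR adjusted p = 0.0272). The call was lost under total-count scaling (adjusted p = 0.0546), without the first lane (0.0539), in DESeq2 (0.106) and without the line term (0.721).

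Of the other alpha subunits, PSMA7 (α4) had the most reads, with 2660 and 2226 reads in CUTTL1 and 2198 and 1957 in TIB153. Its change was −0.33 ± 0.12 (edgeR adjusted p = 0.0908), with ratios of −0.37 and −0.29. PSMA4 (α3) had 1939 and 1805 reads in CUTTL1 and 2176 and 1848 in TIB153 (−0.29 ± 0.12, adjusted p = 0.137). PSMA5 (α5) had 1448 and 1387, then 1532 and 1279 (−0.28 ± 0.12, adjusted p = 0.149). The TIB153 ratios of these last members, −0.36 and −0.39, passed the within-line rule and their CUTTL1 ratios did not. The alpha median was −0.24 in CUTTL1 and −0.29 in TIB153.

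PSMA1, PSMA2 and PSMA6 were counted at 56 to 302 reads, far below the other alpha genes. PSMA6 had 171 and 120 reads in CUTTL1 and 194 and 210 in TIB153, and its ratios were −0.62 (−0.97 to −0.28) and −0.01 (−0.30 to 0.28). PSMA2 had 58, 56, 71 and 86 reads in the same order. In GENCODE v29, 88.6% of the coding bases of PSMA1, 97.1% of PSMA2, 70.4% of PSMA6 and 58.3% of PSMB10 lie on the same strand within a second, read-through gene. Those partners (AC018523.2, AC010132.3, AL121594.1 and AC040162.1) were themselves at 0 to 15 reads. The levels and ratios of these 4 members are therefore uncertain, and whether reads over both genes were dropped was not tested. Without the 4 the median over members was −0.17 in CUTTL1 and −0.20 in TIB153.

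Of the groups, the beta subunits had the median edgeR change nearest 0, at −0.03. Their 7 edgeR changes ran from −0.18 (PSMB2) to 0.17 (PSMB4), none passed, and every interval stayed within 1.5-fold. The 6 ATPases, with a median of −0.13, also had every interval within 1.5-fold. PSMB5, the chymotrypsin-like site and the target of clinical proteasome inhibitors, had 757 and 823 reads in CUTTL1 and 705 and 872 in TIB153 (0.09 ± 0.13, edgeR adjusted p = 0.674). PSMB6, the caspase-like site, had 1200 and 1246, then 1061 and 1161 reads (−0.03 ± 0.12, adjusted p = 0.903). PSMB7, the trypsin-like site, had 1405 and 1456, then 1851 and 2044 reads (−0.02 ± 0.12, adjusted p = 0.924). None of the 3 catalytic genes passed, with edgeR 95% limits of −0.18 to 0.37 for PSMB5, −0.29 to 0.23 for PSMB6 and −0.28 to 0.24 for PSMB7. Within TIB153 the ratio of PSMB5 was 0.18 (0.04 to 0.33), short of the limit for a call. PSMB4, a structural subunit, stood at 274 CPM in both CUTTL1 libraries (2025 and 2192 reads) and at 257 and 323 CPM in TIB153 (1972 and 2704 reads). Its TIB153 ratio of 0.33 (0.25 to 0.41) was the highest of any member, and its edgeR change did not pass (adjusted p = 0.434). PSMB1, PSMB2 and PSMB3 had changes of −0.09, −0.18 and −0.10.

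The immunoproteasome genes separated the lines. PSMB8 (chr6:32840717-32844703, minus strand) and PSMB9 (chr6:32844136-32859585, plus strand) are neighbours in the MHC class II region, and PSMB10 lies at chr16:67934502-67937087 on the minus strand. PSMB8 (LMP7) had 618 and 638 reads in CUTTL1 control and treated cells (83.6 and 79.7 CPM) and 1253 and 956 in TIB153 (163 and 114 CPM). PSMB9 (LMP2) had 164 and 199 reads in CUTTL1 and 257 and 178 in TIB153. PSMB10 (MECL-1) had 75 and 89 in CUTTL1 and 121 and 71 in TIB153. Each was higher in TIB153 control than in CUTTL1 control, and each was called lower in TIB153 alone. In CUTTL1 the ratios were −0.07 (−0.23 to 0.09), 0.16 (−0.14 to 0.47) and 0.13 (−0.33 to 0.59) for PSMB8, PSMB9 and PSMB10. In TIB153 they were −0.52 (−0.64 to −0.39), −0.65 (−0.94 to −0.37) and −0.89 (−1.34 to −0.46). The TIB153 ratio was lower by 0.45, 0.82 and 1.02 log2 units in that order, and each counting interval of the difference left out 0. Across lines none passed: edgeR gave −0.30 ± 0.14 for PSMB8 (adjusted p = 0.176), −0.25 ± 0.22 for PSMB9 (0.497) and −0.39 ± 0.30 for PSMB10 (0.426). With 1 library per group the difference between lines has no replicate check.

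Levels per length relate each of these genes to the subunit it replaces. PSMB8 stood at 94.0% of PSMB5 in CUTTL1 control and 89.2% after treatment, and at 205% and 126% in TIB153. PSMB9 was at 14.9% and 17.4% of PSMB6 in CUTTL1, and 26.4% and 16.7% in TIB153. PSMB10 was at 4.30% and 4.92% of PSMB7 in CUTTL1, and 5.26% and 2.79% in TIB153. In TIB153 the treated shares came near the CUTTL1 level for PSMB9 and below it for PSMB10. All of these are ratios of reads per kilobase of the principal transcript, and the PSMB10 values carry the overlap named above.

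**Figure D2:**
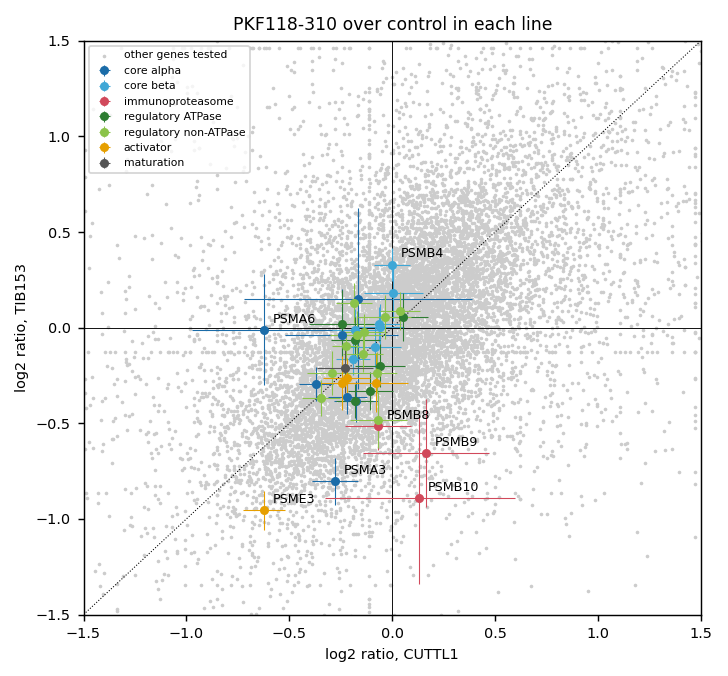
Log2 ratio of PKF118-310 over control in TIB153 against CUTTL1, for the members by role with 95% counting intervals and for the other genes tested in grey (points beyond 1.5 are outside the frame). PSMB8, PSMB9 and PSMB10 lie below the dotted line of equal ratios, PSME3 and PSMA3 lie in the lower left, and most members gather near the origin.

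Differences between the lines beyond counting error were seen for 17 members: 6 with a higher ratio in TIB153 (14.1% of all genes tested) and 11 with a lower one (19.1%). The 6 were PSMA6, PSMB3, PSMB4, PSMC6, PSMD2 and PSMD3. The 11 were PSMA3, PSMA4, PSMA5, PSMB8, PSMB9, PSMB10, PSMC3, PSMC5, PSMD4, PSMD12 and PSME3. The immunoproteasome gave 3 of 3, all lower in TIB153. Of the 7 alpha genes 3 were lower and 1 was higher, namely PSMA6, whose counts are uncertain. Of the 7 beta genes 2 were higher and 0 lower. The 17 regulatory genes gave 3 higher and 4 lower, and the 4 activators 0 higher and 1 lower. A ratio lower in TIB153 than in CUTTL1 was not particular to the immunoproteasome. Of 11 interferon and peptide-loading neighbours tested, which are not members, 7 had a lower TIB153 ratio beyond counting error and 0 a higher one. Their median difference was −0.50, from a median ratio of 0.34 in CUTTL1 and −0.03 in TIB153. In CUTTL1 5 of the 11 were called higher and 0 lower (16.8% and 15.4% of all genes tested). In TIB153 1 was called higher and 4 lower (19.3% and 20.9%). The difference is therefore not a fall in TIB153 alone. TAP2, 1 of the 7, shares 90.6% of its coding bases with a second gene on the same strand.

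The ATPase ring and the PSMD genes drive the regulatory particle. The 6 ATPases had edgeR changes between −0.28 (PSMC3) and 0.05 (PSMC1), and none passed. PSMC3 had 2036 and 1942 reads in CUTTL1 and 2327 and 1944 in TIB153 (−0.28 ± 0.12, edgeR adjusted p = 0.150). PSMC1 was among the 3 members with the highest CUTTL1 ratio, at 0.05 (1012 and 1135 reads, and 999 and 1133 in TIB153). In GENCODE v29 47.7% of its coding bases are covered by NRDE2 on the opposite strand, and no source used here says whether reads were counted by strand. PSMC5 had −0.11 in CUTTL1 and −0.33 in TIB153, and PSMC2, PSMC4 and PSMC6 had edgeR changes of −0.12, −0.13 and −0.11.

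Among the 11 PSMD genes, PSMD1 (RPN2), the large scaffold of the base, had the smallest p. It had 2131 and 1816 reads in CUTTL1 (288 and 227 CPM) and 2013 and 1703 in TIB153 (262 and 203 CPM), with ratios of −0.35 and −0.37. The edgeR change was −0.36 ± 0.12 (adjusted p = 0.0709), and the call was made when no filter on low counts was used (adjusted p = 0.0360). PSMD7 (RPN8), the partner of the deubiquitinase PSMD14, had 1192 and 1055 and then 1256 and 1163 reads (−0.26 ± 0.12, adjusted p = 0.164). AC009120.2 covers 28.4% of the PSMD7 coding bases on the opposite strand. PSMD14, which strips ubiquitin chains, had 0.01 ± 0.12. PSMD4, the ubiquitin receptor RPN10, had −0.15 ± 0.12, and PSMD11 and PSMD3 had 0.06 and −0.03. PSMD12 was called in TIB153 (874 and 683 reads) and not in CUTTL1 (848 and 876). The remaining PSMD2, PSMD6, PSMD8 and PSMD13 lay between −0.16 and −0.08. POMP, which assembles the core particle, had 915 and 846 and then 1007 and 948 reads (−0.22 ± 0.12, edgeR adjusted p = 0.256).

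Read as a pool, the 39 genes supplied 51094 reads (0.671% of the library) in CUTTL1 control and 49000 (0.615%) with PKF118-310, and 51942 (0.667%) and 49890 (0.613%) in TIB153. Regulatory genes held 0.341% and 0.317% in CUTTL1 and 0.329% and 0.311% in TIB153. Activators held 0.0688% and 0.0563% in CUTTL1 and 0.0671% and 0.0488% in TIB153. The pool of all 39 was thus nearly equal in the control libraries, and smaller in each treated library than in its control. Immunoproteasome genes differed between the control lines, with 0.0113% and 0.0116% in CUTTL1 and 0.0209% and 0.0148% in TIB153 (116 and 116 CPM, and 212 and 144 CPM, after scaling).

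**Figure D3:**
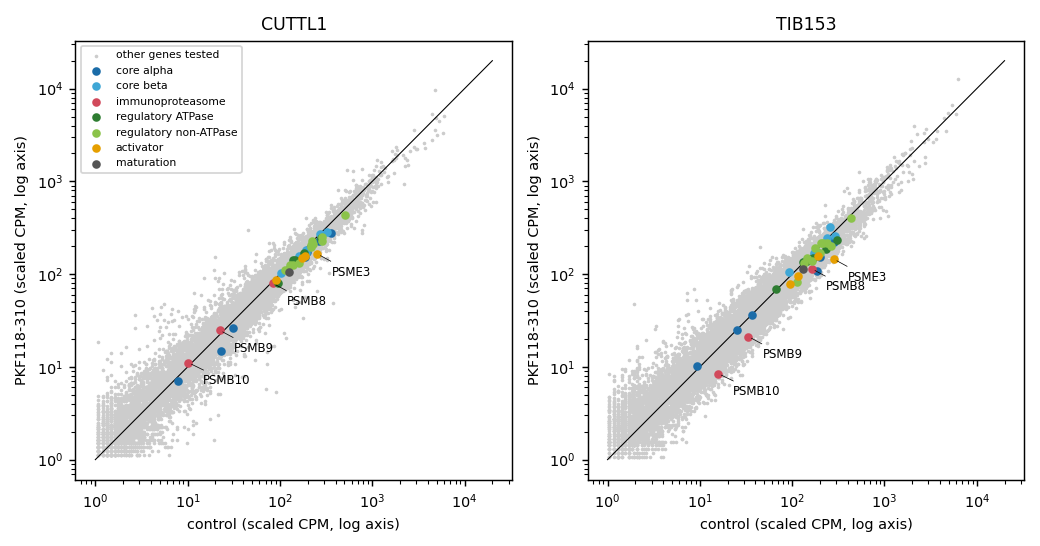
Scaled CPM with PKF118-310 against control in CUTTL1 (left) and TIB153 (right) on log axes, members coloured by role over the other genes tested that exceed 1 CPM in both libraries. The members form a tight cloud near or just under the diagonal, with PSME3 at 254 and 165 CPM in CUTTL1 and 282 and 145 CPM in TIB153.

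Transcripts for subunits of one particle did not stand at one level. In control CUTTL1, core genes without shared coding bases ran from 52.5 (PSMA5) to 361 RPKM (PSMA7) and regulatory genes from 26.0 (PSMD12) to 174 RPKM (PSMC3). In control TIB153 the core range was 53.5 to 287 and the regulatory range 25.8 to 192, between the same genes. Medians were 191 and 193 RPKM for core genes and 96.6 and 94.5 for regulatory genes in CUTTL1 and TIB153. PSME4 was at 26.4 and 16.3 RPKM, and PSME3 at 255 and 283, the highest of the activators in both. Here RPKM is the scaled CPM divided by the kilobases of the longest principal transcript, and levels of genes with several transcript ends depend on that choice.

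**Figure D4:**
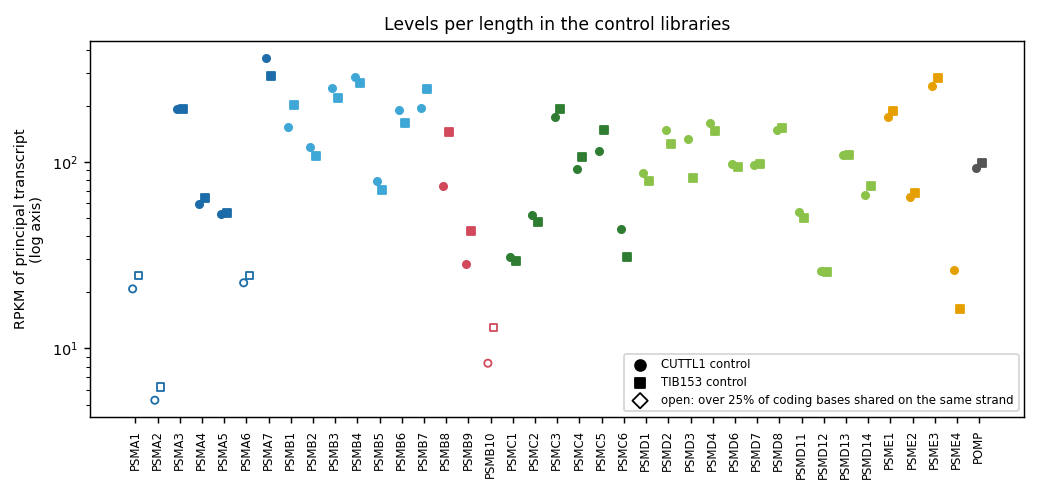
Level per length of each member in the control libraries of CUTTL1 (circles) and TIB153 (squares), log axis, coloured by role. Open symbols are the 4 members with over 25% of coding bases also in a second gene of the same strand, which are the lowest in their groups, and PSMA7 is highest at 361 RPKM in CUTTL1.

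Genes around the proteasome, which are not members, moved in both directions. NRF1, encoded by NFE2L1, is the transcription factor that raises proteasome genes when degradation is impaired, and MAFG is a small MAF partner. Of 11 genes in the regulator list 3 rose and 1 fell, where 6.11% and 6.78% of all genes tested did. The median change of the list was 0.30 against 0.00 for all genes. MAFG had 533 and 936 reads in CUTTL1 and 519 and 988 in TIB153 (0.75 ± 0.13, edgeR adjusted p = 0.00386). In GENCODE v29 AC145207.8 covers 40.1% of the MAFG coding bases on the opposite strand, and the strand setting of the counts is not known. NFE2L2 (NRF2) had 508 and 800, then 382 and 608 (0.54 ± 0.14, adjusted p = 0.0216). NFE2L1 had 1766 and 2694, then 1759 and 2416 (0.41 ± 0.12, adjusted p = 0.0423). NGLY1, which deglycosylates NRF1 during its activation, fell (−0.52 ± 0.15, adjusted p = 0.0332). Both treated libraries of MAFG, NFE2L2 and NFE2L1 were above both controls, while none of the 39 subunit genes rose.

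Of 12 other subunits and bound factors tested, UCHL5, a deubiquitinase of the regulatory particle, fell (−0.79 ± 0.16, edgeR adjusted p = 0.0126), and ZFAND5, which stimulates the proteasome, rose (0.44 ± 0.13, 0.0342). UCHL5 went from 900 to 703 reads in CUTTL1 and from 772 to 383 in TIB153. ADRM1, its docking receptor, had 0.25 ± 0.12 (0.187), and PSMF1, an inhibitor of the core, −0.03 ± 0.13 (0.910). Of 8 assembly chaperones PSMG1 fell (−0.63 ± 0.16, 0.0196) and none rose, with a list median of −0.18. Among 17 genes of ubiquitin supply and delivery, UBA1, the main ubiquitin-activating enzyme, fell (−0.61 ± 0.14, 0.0154), as did the segregase VCP (−0.45 ± 0.12, 0.0309), and its cofactor UFD1 rose (0.46 ± 0.12, 0.02503). UBA1 had 4126 and 3439 reads in CUTTL1 and 4048 and 2472 in TIB153. Over all genes tested 6.11% rose and 6.78% fell, and the few calls in these lists were not tested against those shares.

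Among the interferon and peptide-loading neighbours, ERAP1, the peptide-trimming aminopeptidase, fell (−0.56 ± 0.15, edgeR adjusted p = 0.0354). It had 697 and 634 reads in CUTTL1 and 1227 and 738 in TIB153. TAP1, which shares a promoter region with PSMB9 and pumps peptides into the endoplasmic reticulum, had 408 and 550 reads in CUTTL1 and 529 and 567 in TIB153 (0.14 ± 0.15, 0.564). IRF1, an interferon-responsive activator of these genes, went opposite ways: 310 and 594 reads in CUTTL1 and 1386 and 829 in TIB153, with ratios of 0.82 (0.62 to 1.03) and −0.87 (−0.99 to −0.74). PSMB9 and PSMB10 also had ratios above 0 in CUTTL1 and below 0 in TIB153, their CUTTL1 intervals reaching both sides of 0. In GENCODE v29 genes on the opposite strand cover 59.5% of the IRF1 coding bases, so its reads carry the strand limit named for PSMC1. IRF1 was chosen for description after its values were seen, and any link with these genes was not tested.

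**Figure D5:**
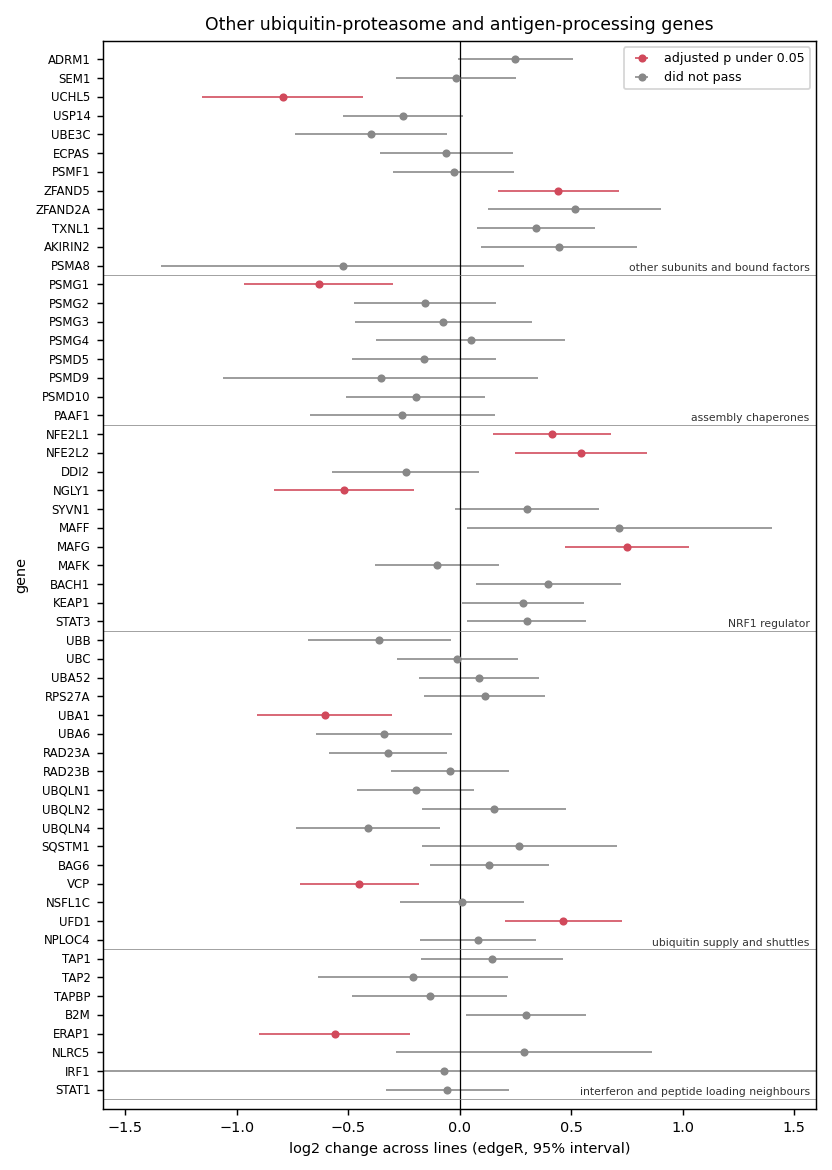
EdgeR log2 change across lines with 95% intervals for 56 genes around the proteasome that are not members, in 5 lists, red where the adjusted p was under 0.05. MAFG, NFE2L2, NFE2L1, UFD1 and ZFAND5 lie right of 0, UCHL5, PSMG1, UBA1, ERAP1, NGLY1 and VCP lie left, and the interval of IRF1 runs past the frame.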

How the data were processed

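Polyadenylated RNA of 4 libraries (1 per group) was sequenced in 2 lanes each. The lane files that the authors deposited give raw read counts per gene. HISAT2, HTSeq, DESeq2 and build hg38 are named in the submitters' processing notes. Versions, counting mode and strand setting are not given in the sources used here. The deposited tables of the authors' own comparisons hold counts, mean normalised counts, log2 fold changes and p-values. They were not used, and neither were their 8 columns of per-sample values.

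Lanes were summed, since the labels make them repeats of one library. Counts were filtered with filterByExpr, scaled by TMM and compared in edgeR 4.0.16 (R 4.3.3) with cell line as a block. DESeq2 1.42.0 was an alternative. The edgeR fit and the counting intervals were checked on simulated counts that held no difference between lines. For the intervals the simulated counts held counting error alone. These checks therefore do not bear on the spread between lines or cultures. Within a line, ratios used a pseudocount of 0.5 counts. Annotation came from GENCODE v29, whose coordinates matched 99.6% of the 11796 genes with at least 80 reads. RefSeq promoters were found for 34 of 39 members. No protein sequences were used.

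The members, the lists and the tests were chosen with earlier results of these data known. Full values were given by rule for PSMB5 to PSMB10, PSME1 to PSME4, POMP, the 10 members with the smallest p, the 3 highest and 3 lowest in each line and the 3 with the largest line difference. In each non-member list, up to 4 passing genes were named, and NFE2L1, NFE2L2, ADRM1, TAP1 and PSMF1 in any case. Some list genes are not reported here. The labels do not say whether libraries came from separate cultures, so p-values measure only the spread between these libraries. Alternatives were other scaling, no filter, no line term, a fit without robust estimation, DESeq2, single lanes, other fold limits, a pseudocount of 2, added pseudogene reads and, chosen after seeing the data, medians without the 4 overlapping members.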

Additional observations from a re-analysis of the deposited data

Results flagged for a closer look

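For 5 members the log2 ratios of PKF118-310 over control had opposite signs in the 2 lines and differed beyond counting error. The share of all genes that met both rules was not computed, so the 5 do not set the members apart. A difference beyond counting error, whatever the signs, was seen for 17 members (43.6%) and for 33.2% of all genes tested. The difference between lines was not tested, since each group held 1 library. PSMB10 had the largest difference (TIB153 minus CUTTL1), at −1.02 log2 units, from ratios of 0.13 and −0.89. PSMB9 followed at −0.82, from 0.16 and −0.65. PSMB4 differed by 0.33, from −0.00 and 0.33, PSMD3 by 0.32, from −0.19 and 0.13, and PSMC6 by 0.27, from −0.25 and 0.02. Only PSMD3 had counting intervals on opposite sides of 0 in the 2 lines. The interval included 0 in CUTTL1 for PSMB10, PSMB9 and PSMB4 (−0.09 to 0.09 for PSMB4), and in TIB153 for PSMC6 (−0.15 to 0.19). For these members the sign in that line is uncertain.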

How the results depend on the processing

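Across lines, 2 members fell in the reported fit, against 1 under total-count scaling, 1 in the DESeq2 Wald test and 0 when the line term (the replicate block) was left out, where no gene of all those tested passed. Leaving out 1 lane of each library gave 1 to 2. Members called lower in CUTTL1 numbered 4 in the reported setting, 2 at 1.5-fold, 0 at 2-fold and 3 to 8 with 1 lane left out. In TIB153, 11 were called lower, against 4 at 1.5-fold, 0 at 2-fold and 6 under total counts, and the 1 called higher became 0 at 1.5-fold and 0 at 2-fold. In CUTTL1 the core median of −0.18 ranged from −0.26 to −0.066 with 1 lane left out, and the alpha median of −0.24 from −0.36 to −0.21. The cause of these shifts was not tested. Numbers shared between lanes mark repeats of one library and pair no samples. Over all genes, 812 rose and 900 fell, against 849 and 560 under total counts, 1001 and 1320 without the filter and 194 and 249 in DESeq2. At 0 calls for a rise, no member had an unadjusted p under 0.05 in that direction, and DESeq2 also called none. Depth limits PSMA2, PSMB10 and PSMA6 most, and 34 of 39 members had at least 500 reads in every library.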
